A study of Danio rerio with 9 samples.

Results

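The 9 transcription factor genes examined here act in the developing retina and were measured in dissected zebrafish eyes. They are pax6a, pax6b, vsx1, six3a, six3b, atoh7, ptf1a, isl1a and lhx2b. The genes were taken by name, as the probe sets of the Affymetrix Zebrafish Genome Array whose single gene symbol in the platform annotation is one of them. Of the 9 genes, 8 had such a probe set and lhx2b had none. isl1a had 2 probe sets, so 9 of 15502 probe sets were followed. The array was hybridised with labelled total RNA from whole eyes of wild type larvae at 3, 4 and 5 days post fertilisation (dpf), with 3 arrays at each age. No treatment or mutation separates the groups, which are labelled by age. The strain and the number of animals behind each array are not given in the sources used here. The study describes biological replicates at 3 and 5 dpf. For the 4 dpf arrays no separate origin is stated, so p-values with that age may measure only technical spread.

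These genes act in sequence as the retina forms. Six3 and Lhx2 factors, homeodomain proteins of the sine oculis and LIM families, set up the eye field in the anterior neural plate, and Pax6, a paired and homeodomain protein, keeps retinal progenitors multipotent and stays on in amacrine and ganglion cells. Atoh7, a basic helix-loop-helix factor, is needed for ganglion cells, which are the first retinal neurons born. Ptf1a, of the same class, directs progenitors to horizontal and amacrine fates, Vsx1 is a homeodomain protein of bipolar cells, and Isl1, a LIM homeodomain protein, marks ganglion cells and subsets of bipolar and amacrine cells. In fish the central retina is largely laminated by the youngest age studied here, while a ring of progenitors at its margin goes on adding neurons. ptf1a, isl1a and pax6b are also used outside the eye, in the pancreas, and six3 and pax6 genes in the brain and lens.

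Each probe set summarises several probes of 25 bases, and those of six3b are shown as an example of what a signal is made from. The study's table of probes, regrouped by its own remapping, gives 16 probes for this gene. The signals used here are those of the original probe set, whose probes may not all be the same. Of the 16 probes, 3 are printed here 5′ to 3′ in their numbered order, with the middle base, number 13, in capitals.
six3b probe 1: agaagtttccttTgccacggaccat
six3b probe 7: aagcagtctgcgCtccatgtcagaa
six3b probe 8: tccatgtcagaaTcgggctgcacac
The middle base is the one that the paired mismatch probe of an Affymetrix array changes. Probe 8 starts with the last 12 bases of probe 7, so neighbouring probes can read the same stretch of the transcript. Of the 16 probes, 5 shared at least 8 bases with the probe before them. Their G and C content ran from 10 to 15 of 25 bases, a property that the GCRMA method uses to estimate unspecific binding.

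The signals are the authors' log2 values from GCRMA, in which 1 unit is a doubling. The array medians lay between 5.70 and 5.79, and the arrays of an age correlated at 0.983 to 0.995. Log2 fold changes are given as the earlier minus the later age, so a positive value is a fall with age, and means are given ± the standard deviation (SD). A probe set was called when limma gave a Benjamini-Hochberg adjusted p under 0.05 and the fold change was at least 2. Each probe set has its own hybridisation strength, so signals of different genes are not compared. A lower signal can come from fewer cells of a type or from less RNA per cell, and these cannot be told apart in whole eyes.

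None of the 8 genes was called between 3 and 5 dpf, where 5.36% of all probe sets were. They were not called between 3 and 4 dpf (3.28% of all) or between 4 and 5 dpf (0.439% of all) either, nor across the 3 ages by the F test (6.84% of all). At an unadjusted p under 0.05 there were 3 of the 9 probe sets between 3 and 5 dpf (35.2% of all), 3 between 3 and 4 dpf (29.7% of all) and 2 between 4 and 5 dpf (23.3% of all), shares near those of all probe sets. Between 3 and 5 dpf the absolute log2 fold change had a median of 0.12 over the 9 probe sets, against 0.23 over all probe sets, and did not exceed 0.67. For 8 of the 9 the 95% interval of that change stayed within 2-fold in either direction, the exception being vsx1. In the comparisons with 4 dpf the intervals of all 9 did so. The interval of six3b between 3 and 5 dpf, -0.996 to 0.29, only just stayed within 2-fold. The median absolute log2 fold change was larger than over all probe sets between 3 and 4 dpf, at 0.25 against 0.17. Between 4 and 5 dpf it was 0.10 against 0.16.

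**Figure D1:**
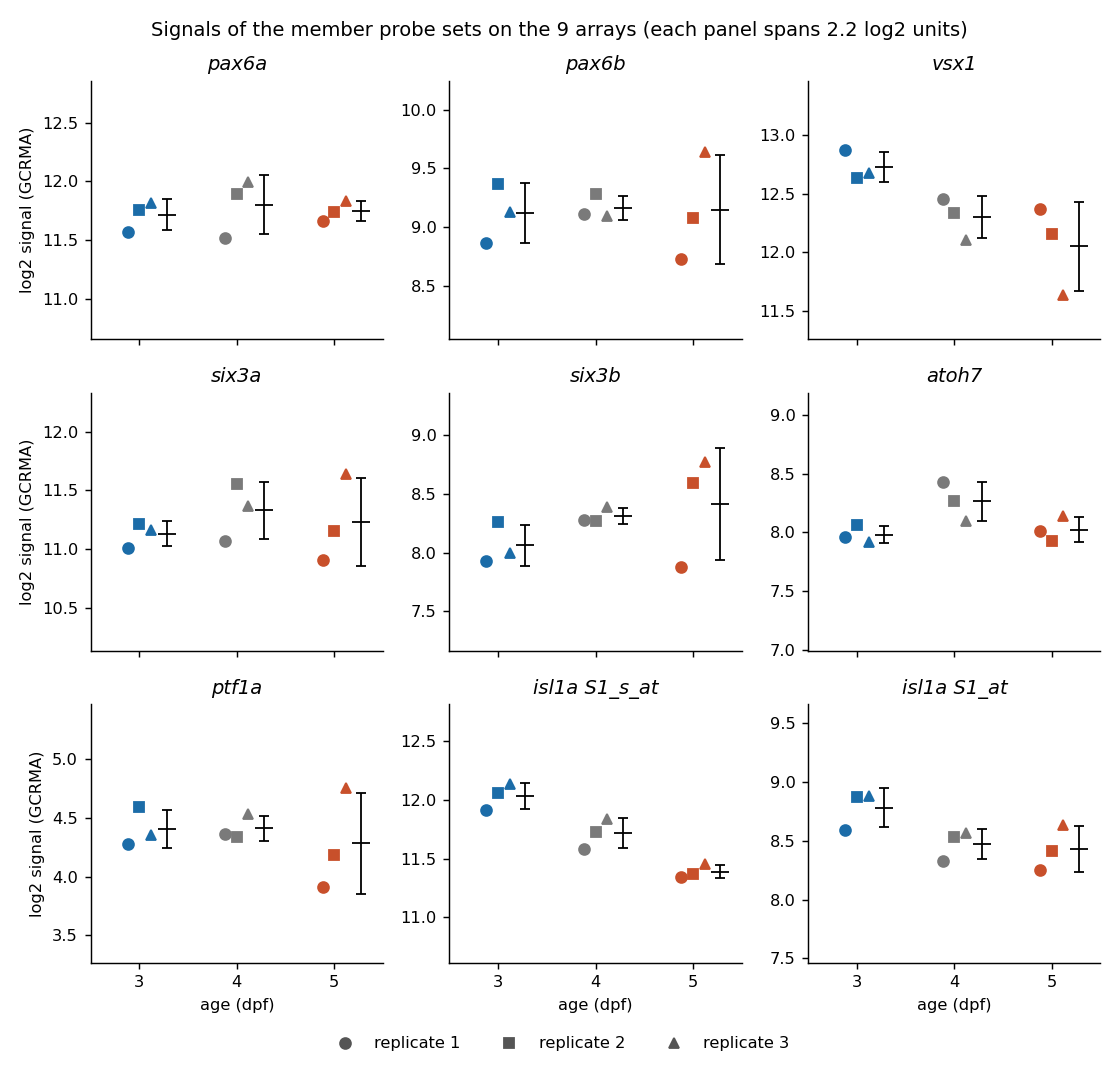
Log2 signal (vertical axis) of each probe set of the 8 genes by age in dpf (horizontal axis). Points are single arrays, with the marker giving the replicate number, and the bar beside them is the mean ± SD of 3 arrays. All panels span the same height. The isl1a probe set with the ending _s_at has means of 12.04, 11.72 and 11.39 at the 3 ages, and pax6a stays between 11.52 and 12.00.

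isl1a, which marks ganglion cells and other inner neurons, was the member with the smallest adjusted p between 3 and 5 dpf. That value belongs to 1 of its 2 probe sets, whose signal fell. Its brighter probe set, with the ending _s_at, had signals of 11.91, 12.06 and 12.13 at 3 dpf, 11.59, 11.73 and 11.84 at 4 dpf, and 11.35, 11.37 and 11.45 at 5 dpf. Each age lay wholly below the one before it. The means were 12.04 ± 0.11, 11.72 ± 0.13 and 11.39 ± 0.058 (SD, n = 3). Between 3 and 5 dpf the log2 fold change was 0.65 (standard error 0.079, limma adjusted p = 0.012), a fold of 1.56. It passed the limit on adjusted p but not the limit of 2-fold, as did no other member probe set, while 11.3% of all probe sets passed on adjusted p alone. Without 3 dpf replicate 2 the adjusted p was 0.053, and without 3 dpf replicate 3 it was 0.055, with log2 fold changes of 0.60 to 0.71 whichever array was left out. The log2 fold change was 0.32 from 3 to 4 dpf (standard error 0.084, adjusted p = 0.048) and 0.33 from 4 to 5 dpf (standard error 0.084, adjusted p = 0.059). The former was under 0.05 in 3 of 17 alternatives and reached 0.15 in the others, with values of 0.25 to 0.38. On adjusted p alone, 13.4% of all probe sets passed between 3 and 4 dpf and 8.07% between 4 and 5 dpf. The F test across the 3 ages gave this probe set an adjusted p of 0.0058, and an adjusted p of 0.0026 to 0.023 under every alternative run, against 26.0% of all probe sets under 0.05.

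The dimmer isl1a probe set was also highest at 3 dpf, with no change past the test in the main fits, which were unpaired. Its signals were 8.59, 8.87 and 8.88 at 3 dpf, 8.33, 8.53 and 8.56 at 4 dpf, and 8.25, 8.41 and 8.63 at 5 dpf. The arrays at 3 and 4 dpf did not overlap, and those at 5 dpf overlapped with both. The log2 fold change was 0.35 between 3 and 5 dpf (standard error 0.14, limma adjusted p = 0.14), 0.31 between 3 and 4 dpf (adjusted p = 0.16) and 0.04 between 4 and 5 dpf (adjusted p = 0.86). The replicate numbers were taken to pair the 3 and 4 dpf arrays, from correlations in these same data. With the number as a block the limma difference between these ages had an adjusted p of 0.027. That fit runs over all 9 arrays, with 5 dpf arrays whose numbers were not taken as pairs, so it is no support for a change. The ending _s_at of the brighter set marks, in the naming of Affymetrix, probes that match more than 1 transcript. These may belong to different genes, so its signal may not be that of isl1a alone. The difference between the 2 probe sets was 3.25 ± 0.068, 3.24 ± 0.041 and 2.96 ± 0.14 at the 3 ages (SD, n = 3). An exact permutation test over the 9 arrays of whether this difference varied with age gave p = 0.036, or adjusted p = 0.11 over the 3 pairs tested, where 0.0036 is the smallest p the design allows.

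vsx1, the bipolar cell gene, had a log2 fold change of similar size and a wider spread, and did not pass the test. Its signals were 12.87, 12.63 and 12.67 at 3 dpf, 12.46, 12.34 and 12.10 at 4 dpf, and 12.37, 12.15 and 11.63 at 5 dpf. All arrays at 4 and 5 dpf were below all arrays at 3 dpf, while those at 4 and 5 dpf overlapped. The means were 12.72 ± 0.13, 12.30 ± 0.18 and 12.05 ± 0.38 (SD, n = 3). The log2 fold change between 3 and 5 dpf was 0.67 (standard error 0.20, 95% interval 0.16 to 1.19, limma adjusted p = 0.092). It had an adjusted p of 0.038 in a fit to all 9 arrays and 0.046 with trend and robust settings. These were the only 2 of 14 alternatives under 0.05, and the adjusted p of the others reached 0.21. The log2 fold change ranged from 0.46 to 0.83 with 1 array left out. The steps were 0.42 between 3 and 4 dpf (adjusted p = 0.18) and 0.25 between 4 and 5 dpf (adjusted p = 0.47).

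**Figure D2:**
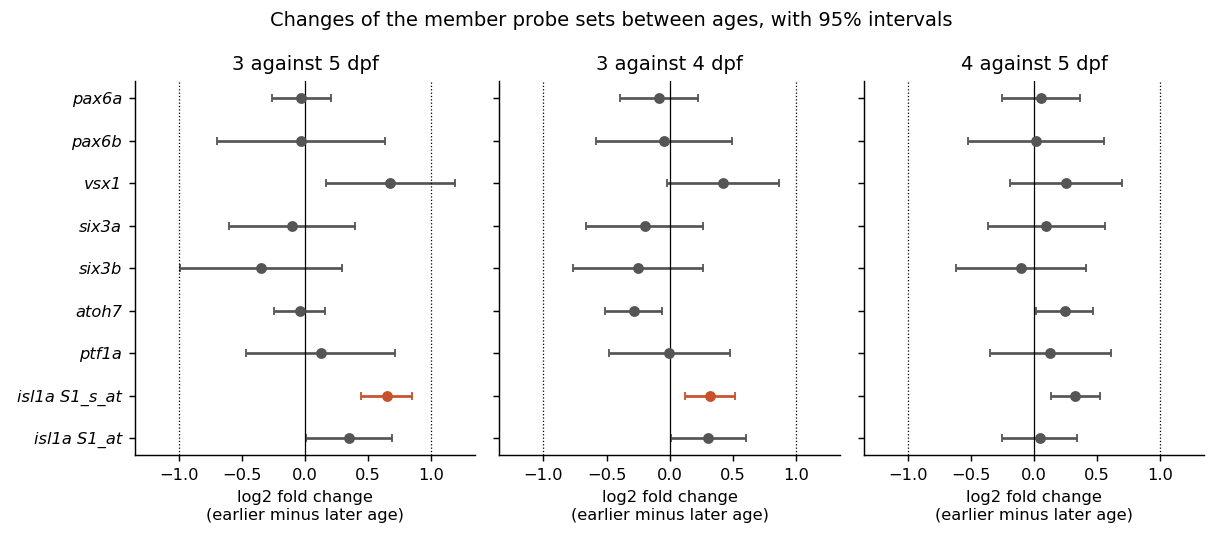
Log2 fold change (horizontal axis, earlier minus later age) of each member probe set in the 3 comparisons, with 95% intervals from limma. Dotted lines mark a 2-fold change in either direction, and orange marks an adjusted p under 0.05, reached by the brighter isl1a probe set at 0.65 and 0.32. Only the interval of vsx1 between 3 and 5 dpf, up to 1.19, crosses a dotted line.

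atoh7, the gene of ganglion cell birth, had its highest mean at 4 dpf, and its means at 3 and 5 dpf differed by less than its spread. No difference passed the test. Its signals were 7.96, 8.06 and 7.92 at 3 dpf, 8.43, 8.27 and 8.10 at 4 dpf, and 8.01, 7.92 and 8.14 at 5 dpf. Every 4 dpf array was above every 3 dpf array. The log2 fold change was -0.28 between 3 and 4 dpf (standard error 0.097, limma adjusted p = 0.099), 0.24 between 4 and 5 dpf (adjusted p = 0.19) and -0.04 between 3 and 5 dpf (95% interval -0.25 to 0.16). ptf1a, its counterpart for horizontal and amacrine cells, was under 5 on all 9 arrays, between 3.91 and 4.76. Its means were 4.41 ± 0.16, 4.41 ± 0.11 and 4.28 ± 0.43 (SD, n = 3), and its log2 fold change between 3 and 5 dpf was 0.12 (95% interval -0.47 to 0.71).

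pax6a, pax6b, six3a and six3b had log2 fold changes of -0.35 to -0.03 between 3 and 5 dpf. Their use is not limited to progenitors, so these signals are no measure of progenitors alone. pax6a had the narrowest range of the members over the 9 arrays, 0.48, with signals of 11.57, 11.76 and 11.82 at 3 dpf, 11.52, 11.90 and 12.00 at 4 dpf, and 11.66, 11.74 and 11.83 at 5 dpf. Its means of 11.72 ± 0.13, 11.80 ± 0.25 and 11.75 ± 0.087 (SD, n = 3) differed by at most 0.087, and 7.05% of all probe sets had age means closer together. The signals of its paralog pax6b were 8.86, 9.37 and 9.13 at 3 dpf, 9.12, 9.28 and 9.09 at 4 dpf, and 8.73, 9.08 and 9.64 at 5 dpf. Its age means lay within 0.043 of each other, closer than in all but 1.01% of probe sets, although its arrays at 5 dpf spread over more than those at the other ages. The 95% interval of the change between 3 and 5 dpf was -0.26 to 0.20 for pax6a and -0.70 to 0.64 for pax6b. The difference between the paralogs on each array was 2.60, 2.64 and 2.60 on average at the 3 ages, with no dependence on age detected (exact permutation test, p = 0.99).

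six3a had signals of 11.01, 11.22 and 11.17 at 3 dpf, 11.07, 11.55 and 11.37 at 4 dpf, and 10.90, 11.16 and 11.64 at 5 dpf. Its log2 fold change between 3 and 5 dpf was -0.10 (95% interval -0.60 to 0.40). six3b had signals of 7.93, 8.26 and 7.996 at 3 dpf, 8.28, 8.27 and 8.39 at 4 dpf, and 7.88, 8.59 and 8.77 at 5 dpf. The 4 dpf arrays were all above the 3 dpf arrays, and the 5 dpf arrays ran from the lowest to the highest of the 9. The log2 fold change between 3 and 5 dpf was -0.35 (standard error 0.26, limma adjusted p = 0.33). Without 5 dpf replicate 1 it was -0.62 (adjusted p = 0.060), and without 5 dpf replicate 3 it was -0.17 (adjusted p = 0.63). The difference between six3a and six3b was 3.07 ± 0.11, 3.02 ± 0.25 and 2.82 ± 0.24 at the 3 ages (SD, n = 3), and its dependence on age had p = 0.37 in the exact permutation test. Over all members, signals at 2 ages did not overlap in 2 of 9 probe sets between 3 and 5 dpf, where they did not in 55.4% of all probe sets. The numbers were 5 of 9 and 46.8% between 3 and 4 dpf, and 1 of 9 and 33.6% between 4 and 5 dpf.

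Within an age, the signals of several members moved together from array to array, though not for every pair at each age. At 5 dpf, replicate 1 gave the lowest signal of pax6a, pax6b, six3a, six3b, ptf1a and both isl1a probe sets, and replicate 3 gave their highest. This pattern was found in 7 of 9 member probe sets and in 19.2% of all probe sets. vsx1 ran the other way, highest in 5 dpf replicate 1 and lowest in replicate 3. After the mean of each age was removed, vsx1 correlated across the 9 arrays at -0.95 with ptf1a, at -0.87 with six3a and at -0.85 with pax6b. Over the same arrays pax6b correlated at 0.91 with ptf1a and at 0.88 with six3a, six3b at 0.88 with ptf1a, and pax6a at 0.95 with the brighter isl1a probe set. These correlations are among the strongest of the member pairs, and atoh7 correlated with the others only at -0.54 (pax6a) to 0.43 (pax6b). Those with ptf1a use a probe set under 5 on all 9 arrays. Its largest deviations were -0.37 and 0.47, in 5 dpf replicates 1 and 3. At 4 dpf pax6b was highest in replicate 2, at 9.28, and ptf1a in replicate 3, at 4.53. The share of all probe set pairs with such correlations is not given here. They describe 9 arrays in which all probe sets share the same RNA and the same normalization. The signals at 5 dpf were 8.73 and 9.64 for pax6b and 3.91 and 4.76 for ptf1a in replicates 1 and 3, a wider gap than between any pair of age means of those genes. Without 5 dpf replicate 1 the F test gave six3b an adjusted p of 0.027 and vsx1 one of 0.042, in place of 0.41 and 0.072. With any other array left out, the F test gave an adjusted p of 0.37 to 0.66 for six3b and 0.059 to 0.18 for vsx1.
Pancreas genes differed between the same arrays. The summed linear signal of 19 of them was 2162, 3568 and 7507 in 5 dpf replicates 1, 2 and 3, against 231 to 895 at 3 dpf and 446 to 969 at 4 dpf. Their part in the order of the member signals was not tested. The elastase gene ela2l had means of 3.77 at 3 dpf and 8.95 at 5 dpf. The pancreatic progenitor gene pdx1 was at 2.46 and 2.58, signals so low that a small change would not show. Of the 19 genes 6 were called lower at 3 than at 5 dpf and 0 higher, where 5.36% of all probe sets were called. Their median log2 fold change was -1.93, against -0.10 over all probe sets.

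**Figure D3:**
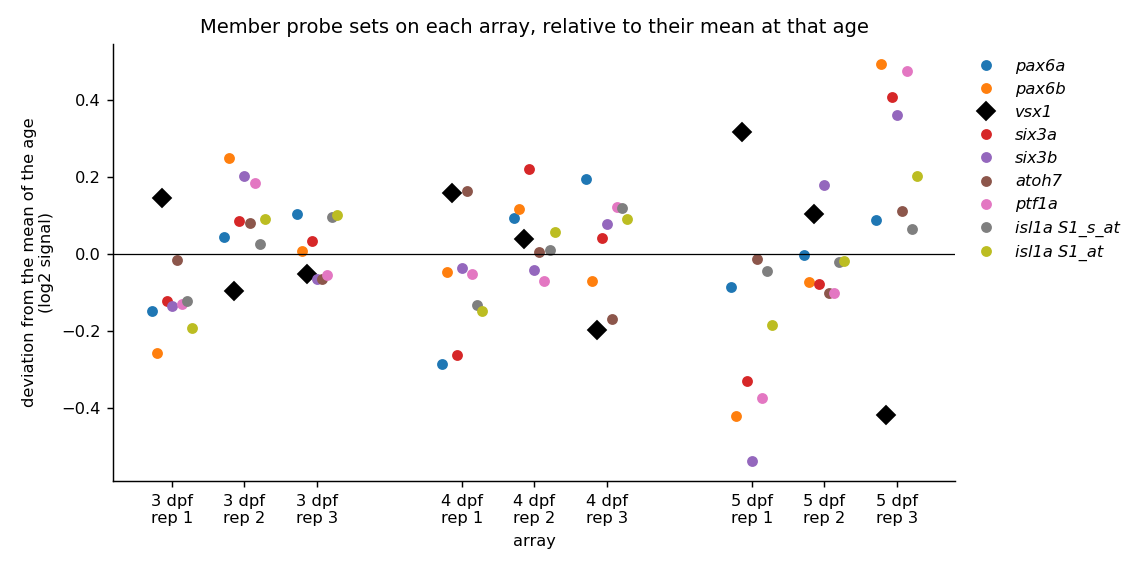
Deviation of each member probe set from its mean at that age (vertical axis, log2 signal) on each of the 9 arrays (horizontal axis). Black diamonds are vsx1 and coloured points the other probe sets. At 5 dpf, vsx1 lies above the line in replicate 1 and below it in replicate 3, and pax6b, six3a, six3b and ptf1a lie the opposite way.

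Other transcription factors of the same lineages were examined through gene lists, each gene by its probe set with the highest mean. Over all probe sets 5.36% were called between 3 and 5 dpf. With only the probe set of highest mean of each gene tested, 6.97% of 8793 were called. These are the shares to set beside each list count. Of 24 further eye field and progenitor factors 1 was called, near these shares, and it was lower at 3 dpf. This was rx1, a retinal homeobox gene, at 5.34 and 6.46, a log2 fold change of -1.11 (standard error 0.20, limma adjusted p = 0.029). The median of the list was -0.05. Of 21 neurogenic and neuronal differentiation factors 3 were called higher at 3 dpf and 0 lower, with a median of 0.28. They were dlx2a (2.75, adjusted p = 0.023), which is used in the forebrain and the pharyngeal arches, sox11b (1.53, adjusted p = 0.013), a gene of young neurons, and insm1b (1.14, adjusted p = 0.016), a gene of cells leaving the cycle. Of 18 other inner retinal neuron factors 0 were called by limma, with 6 at an unadjusted p under 0.05, where 35.2% of all probe sets were, and a median of 0.35. The largest changes among them were those of tfap2c, at 0.76 (adjusted p = 0.049, under 2-fold), and lhx1a, at 0.75 (adjusted p = 0.20). isl2a also passed on adjusted p alone, at 0.47 (adjusted p = 0.048), as did 11.3% of all probe sets.

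Genes that inner retinal neurons use in their function included some past the test. Of 22 such genes 2 were called higher and 3 lower at 3 dpf than at 5 dpf, with a median of -0.03. Over all probe sets 5.36% were called between these ages. cabp5b, a calcium binding protein of bipolar cells, was at 9.42 at 3 dpf and 12.01 at 5 dpf. Its log2 fold change was -2.59 (standard error 0.37, limma adjusted p = 0.016). vsx1, the transcription factor of these cells, was at 0.67 in the other direction but did not pass the test (adjusted p = 0.092). gng13b of the same list, also higher at 3 dpf, had 1.03 (adjusted p = 0.060). gad1b, which makes the transmitter of many amacrine and horizontal cells, had -1.19 (adjusted p = 0.0497) and sncgb, a synuclein gene, -1.20 (adjusted p = 0.035). gap43, a protein of growing axons, had 1.11 (adjusted p = 0.038). Of 26 cell cycle genes 3 were called higher at 3 dpf and 0 lower (incenp, cdc20 and cdk2), with a median of 0.81. Of 19 Notch genes 0 were called by limma, with 6 at an unadjusted p under 0.05 (35.2% of all probe sets) and a median of 0.01. The largest changes there were hes6 at 0.88 (adjusted p = 0.018, under 2-fold) and dlb at 0.80 (adjusted p = 0.061). Of 18 photoreceptor genes 5 were called lower at 3 dpf and 0 higher, with a median of -0.33. Among these were guca1c, guca1b, pde6a and gucy2f, with log2 fold changes from -2.27 to -1.52.

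**Figure D4:**
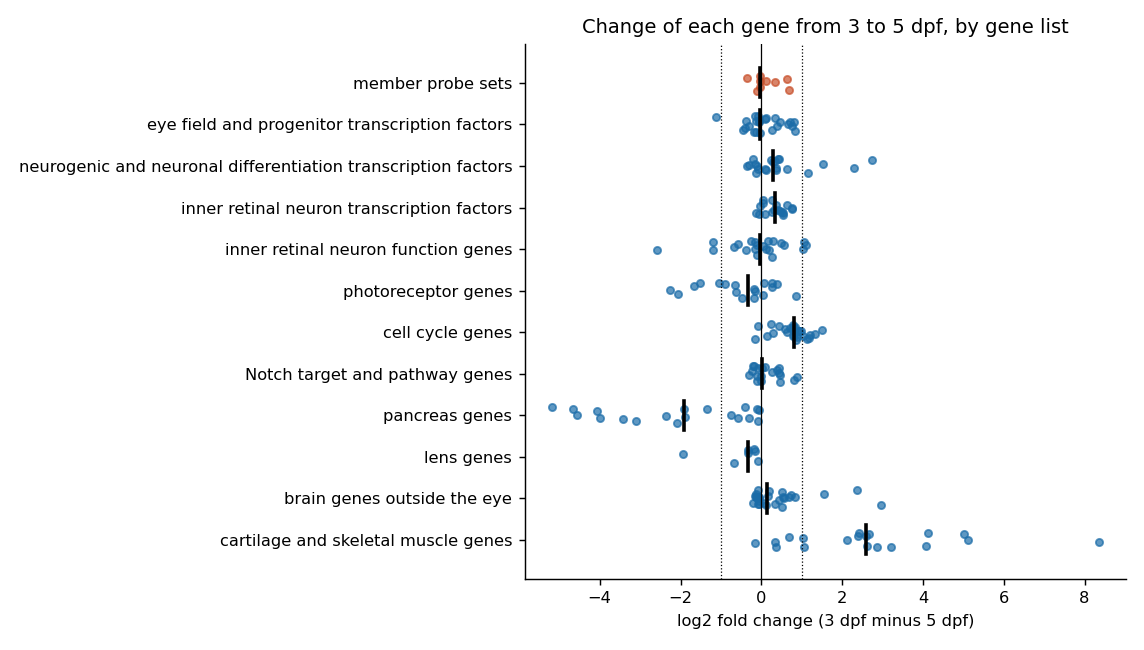
Log2 fold change between 3 and 5 dpf (horizontal axis, 3 dpf minus 5 dpf) of the member probe sets (orange) and of the genes of each list (blue). Points are probe sets, black bars are medians, and dotted lines mark a 2-fold change. The member probe sets lie between -0.35 and 0.67, while cell cycle genes have a median of 0.81 and pancreas genes one of -1.93.

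Genes of tissue outside the retina also differed between 3 and 5 dpf. Of 19 cartilage and skeletal muscle genes 12 were called higher at 3 than at 5 dpf and 0 lower, with a log2 fold change of 8.36 for matn1, a cartilage matrix gene. Their summed linear signal was 25798 to 30695 at 3 dpf, 2695 to 3668 at 4 dpf and 1997 to 3855 at 5 dpf. Of 28 genes listed as brain genes outside the eye 1, hoxb3a, was called higher at 3 dpf and 0 lower, where 5.36% of all probe sets were called. Its means were 6.05, 2.82 and 3.08 at the 3 ages. The sum of the listed brain genes was 1267 to 2014 at 3 dpf, 1126 to 1304 at 4 dpf and 1235 to 1470 at 5 dpf. On each array 19 to 23 of the 28 were under 5, so the sum follows a few bright genes, such as gbx2 at 8.78 and 8.92 at 3 and 5 dpf. Whether the eye itself expresses those genes was not tested. Of 7 lens genes 0 were called by limma between 3 and 5 dpf, with 3 at an unadjusted p under 0.05 (35.2% of all probe sets), and cryaa and bfsp2 had -1.93 (adjusted p = 0.088) and -0.67 (adjusted p = 0.13). Their sum was 37925 to 57788, 54450 to 60143 and 51154 to 73185 at the 3 ages. The part of these tissues in the member signals was not tested.

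For each member, the genes with the most similar pattern over the 9 arrays were sought among single-symbol genes with a mean of at least 5. For isl1a these were si:dkey-183i3.5 and eif4g2a, a translation initiation factor gene, each with a Pearson r of 0.98. For vsx1 they were septin2 and rbm17, each at 0.97. The nearest gene was thrb, a thyroid hormone receptor of cones, for pax6a (0.94), ahsa1b, a cochaperone, for pax6b (0.95), gadd45aa for six3a (0.97), ggctb for six3b (0.97), ttc9c for ptf1a (0.93) and pde12 for atoh7 (0.93). These are the highest of 5879 or 5880 correlations for each member over 9 arrays and carry no test.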

How the data were processed

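In the study's methods, total RNA of dissected eyes at 3 and 5 dpf was labelled with a two-cycle protocol. Those methods do not describe the 4 dpf arrays. All 9 arrays are Affymetrix Zebrafish Genome Arrays. The deposited values are log2 signals that the authors made with GCRMA (version not given in the sources used here), with 1 value per original probe set. Whether GCRMA was run on all 9 arrays at once is not known. If the 4 dpf arrays were handled apart, this and age cannot be told apart. The lowest signal of an array lay between 0.95 and 1.00 at 4 dpf, and between 1.09 and 1.16 at 3 and 5 dpf. The cause of that difference was not tested. No depth applies to arrays, and their number limits the precision.

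Of 15617 probe sets, 115 controls were left out. The platform annotation gives 1 symbol to 10802 of all probe sets, several to 135 and none to 4680. limma 3.58.1 in R 4.3.3 (lmFit, eBayes, Benjamini-Hochberg over 15502 probe sets) compared 3 and 5 dpf on their 6 arrays, as in the study's methods, and 4 dpf with either age on all 9. The moderated F test used all 9. A gene was called when any of its probe sets was. The fits were tested on simulated data.

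Pair differences were tested by exact permutation of the ages over the 9 arrays (1680 arrangements). Alternatives were quantile normalization, median centring, a mean of at least 5, signals under 4 set to 4, the replicate block, other sets of arrays in the fit, no fold limit, eBayes with trend and robust options, the representative probe set of each gene alone, and leaving out each array. The deviations of same-numbered 3 and 4 dpf arrays from their age means correlated at 0.60, 0.50 and 0.44, so those numbers were taken to pair them. The main fits between 3 and 4 dpf did not use this pairing. With 5 dpf only replicate 1 correlated best with the same number, at 0.54 for 3 dpf and 0.72 for 4 dpf. Replicates 2 and 3 correlated best with each other's number, so the numbers were not taken to pair the 5 dpf arrays.

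The members and the 11 gene lists were chosen with earlier results of these data known. Named genes are all members, up to 4 called genes per list with the largest change, or 2 where none was called, and the 2 genes closest in pattern to each member. pdx1, gng13b and isl2a were added after their values were seen. Probe set values of a remapped annotation are not used here.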

Additional observations from a re-analysis of the deposited data

How the results depend on the processing

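No member gene was called at an adjusted p under 0.05 and 2-fold in any of the 3 comparisons or in the F test under any alternative that kept the fold limit. With 1 array left out the count was 0 in every fit. Without the fold limit it was 1 between 3 and 5 dpf, 1 between 3 and 4 dpf and 1 across all ages, in each case isl1a, and 0 between 4 and 5 dpf.

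The fits with the replicate number as a block also called 0 member genes, and their adjusted p for the brighter isl1a probe set was 0.025, 0.017 and 0.027 in the 3 comparisons. For the pairs of probe sets the block of replicate numbers gave 0 pairs past the threshold, with an exact permutation p = 0.11 for isl1a. In the F test the block gave vsx1 an adjusted p of 0.025 in place of 0.072, but it runs over all 9 arrays and the numbers did not pair those at 5 dpf, so this is no support for a change. The block values of the brighter isl1a probe set in the 3 comparisons are no support for a change either. Each of these fits includes 5 dpf arrays, which the numbers did not pair.

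Between 3 and 4 dpf the adjusted p of the brighter isl1a probe set rose above the limit in most alternatives, to 0.057 with median centring, 0.071 in a fit to the 6 arrays and 0.15 after the filter on means under 5. The value was 0.32 in each of these, and the cause was not tested.

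Directions turned only for changes close to 0. Between 4 and 5 dpf quantile normalization gave -0.00087 for pax6a and -0.0033 for pax6b, and median centring -0.012 for pax6b. With 1 array left out, the ranges that crossed 0 between 3 and 5 dpf were -0.0818 to 0.0436 for pax6a, -0.24 to 0.22 for pax6b, -0.27 to 0.10 for six3a, -0.0931 to 0.0130 for atoh7 and -0.0635 to 0.36 for ptf1a. Between 3 and 4 dpf they were -0.23 to 0.0098 for pax6a, -0.17 to 0.0854 for pax6b and -0.0964 to 0.0599 for ptf1a. Between 4 and 5 dpf they were -0.0400 to 0.20 for pax6a, -0.20 to 0.26 for pax6b, -0.0678 to 0.30 for six3a, -0.37 to 0.0771 for six3b, -0.0588 to 0.36 for ptf1a and -0.0489 to 0.14 for the dimmer isl1a probe set.

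ptf1a has a mean under 5 and was not tested where that filter was set. With 3 arrays per age, changes well under 2-fold in members with a wide spread, such as pax6b and six3b, were not detectable.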
